A study of Mus musculus with 30 samples.

Results

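The metallothionein genes Mt1, Mt2, Mt3 and Mt4 lie side by side on mouse chromosome 8, all on the + strand, and their DNA methylation was followed in sperm of mice that drank cadmium and of mice that did not. Every CpG from 3000 bp before to 3000 bp after the RefSeq body of each of the 4 genes was taken, with both strands summed, which gave 141 CpGs of the 2558413 that the libraries covered on the autosomes and X. Of these, 84 were tested, since each was covered 10 times or more in no fewer than 10 mice per group, among 1125411 tested CpGs in all. The windows of Mt1, Mt2 and Mt3 held 24, 45 and 13 tested CpGs. Mt4 held 2, fewer than the 3 that a window needed for a test, so that 3 of the 4 genes stood among the 25904 gene windows tested.

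Metallothioneins are small cysteine-rich proteins that bind zinc, copper and cadmium. Mt1 and Mt2 are expressed in most tissues and are switched on by these metals when the zinc-sensing factor MTF1 binds short metal response elements in their promoters, and the proteins they encode bind cadmium that has entered the cell. Mt3 is known chiefly from the brain and Mt4 from stratified squamous epithelium. Methylation of CpGs in a promoter is commonly found with silent genes, and CpG-rich promoters are mostly free of it in sperm.

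The cadmium group was 15 male C57BL/6J mice whose reverse-osmosis water carried 0.9 ppm cadmium, made from cadmium chloride, and the vehicle group was 15 such mice on that water without the metal. At the start they were 7 weeks old, their sperm was taken after 9 weeks of treatment, and the labels state an average dose of 0.68 mg of cadmium per kg of body weight. All mice ate the same low-fat diet, and mature sperm came from both cauda epididymides of a mouse. Methylation was read by reduced representation bisulfite sequencing, which samples fragments rich in CpGs and leaves most other CpGs unread.

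Coverage summed over cytosines ran between 53591172 and 94090975 per library, and a control sequence without methylation read 0.0740% to 0.666% methylated. The labelled cell type was checked at imprinted regions. The H19 control region, methylated in sperm, averaged 87.1% ± 9.32 in cadmium mice and 88.6% ± 12.8 in vehicle mice (SD, n = 15 each). It ranged over 66.7% to 100% in cadmium mice and 62.6% to 100% in vehicle mice. The lowest of each group, cadmium mouse 13 and vehicle mouse 12, were not among the 3 mice left out later. Maternally imprinted genes carry regions that are free of methylation in sperm and methylated on one copy in body cells. For each of 16 such genes the end with more tested CpGs was taken, and whether that end holds such a region was not checked. Only the 12 ends that were read in every mouse and averaged under 20% were kept, so that their mean is low by this rule. Mest, Kcnq1ot1, Plagl1 and Snrpn were left out. Peg3 and Usp29 have one and the same end region here, and so do Peg10 and Sgce, so that the 12 come from fewer regions. Their mean was 16.2% ± 5.96 in cadmium mice, ranging over 5.94% to 25.6%, and 12.8% ± 8.30 in vehicle mice, ranging over 2.33% to 31.5% (SD, n = 15 each). Of these 12, the group means ran between 0.981% at Grb10 and 24.0% at Nnat in cadmium mice, against 0.828% at Grb10 and 18.9% at Nap1l5 in vehicle mice, so that none was at 0. Cadmium mouse 12 and vehicle mice 4 and 13 were over 25%. The part of body-cell DNA in the values that follow was not tested, and the differences between the groups, the call counts and the order of the genes are also given without these 3 mice. Over the whole gene windows of the 16 imprinted genes, 14 were higher in cadmium mice and 2 lower, beside 62.9% of all gene windows higher. The median difference was 3.01 points, against 0.378 points over all windows. In the quasi-binomial model described below 0 of the 16 were called. Nnat alone had an unadjusted p under 0.05, where 3.63% of all windows did. A level in bulk sperm is a share of reads, so that a few fully methylated cells and many slightly methylated ones cannot be told apart.

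The promoters are shown first because they carry the metal response elements and because the genes differ in how far their promoters could be read. Each sequence is the RefSeq window of 250 bases before to 50 bases after the start of the gene on GRCm38.p6, + strand, and the capitals mark metal response element cores, searched as TGCACNC and TGCGCNC on both strands. The windows are chr8:94178839-94179138 for Mt1, chr8:94172368-94172667 for Mt2, chr8:94152357-94152656 for Mt3 and chr8:94136954-94137253 for Mt4.
Mt1: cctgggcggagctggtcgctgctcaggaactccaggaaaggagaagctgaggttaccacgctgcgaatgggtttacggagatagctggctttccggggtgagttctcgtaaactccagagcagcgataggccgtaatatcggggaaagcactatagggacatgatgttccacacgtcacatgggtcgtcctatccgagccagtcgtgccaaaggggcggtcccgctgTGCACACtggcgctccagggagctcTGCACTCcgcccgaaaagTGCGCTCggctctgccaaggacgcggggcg
Mt2: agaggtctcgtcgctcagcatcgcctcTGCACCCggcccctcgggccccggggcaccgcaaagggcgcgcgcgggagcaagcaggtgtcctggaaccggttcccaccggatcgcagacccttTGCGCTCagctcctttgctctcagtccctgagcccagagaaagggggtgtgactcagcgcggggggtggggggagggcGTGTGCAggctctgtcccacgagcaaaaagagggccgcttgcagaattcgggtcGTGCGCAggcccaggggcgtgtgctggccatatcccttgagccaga
Mt3: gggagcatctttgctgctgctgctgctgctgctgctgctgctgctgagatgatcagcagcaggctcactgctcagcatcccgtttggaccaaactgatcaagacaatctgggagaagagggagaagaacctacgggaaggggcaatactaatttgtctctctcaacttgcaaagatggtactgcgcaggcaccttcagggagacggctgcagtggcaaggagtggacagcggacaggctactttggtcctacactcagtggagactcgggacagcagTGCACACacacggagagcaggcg
Mt4: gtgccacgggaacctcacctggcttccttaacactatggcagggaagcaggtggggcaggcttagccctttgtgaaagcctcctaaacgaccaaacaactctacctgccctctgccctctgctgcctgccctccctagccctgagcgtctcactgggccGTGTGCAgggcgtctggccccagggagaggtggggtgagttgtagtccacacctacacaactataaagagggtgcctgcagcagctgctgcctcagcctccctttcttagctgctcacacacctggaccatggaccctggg

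The Mt1 and Mt2 windows each held 24 CpGs, more than 80% of the 32851 RefSeq promoter windows of this length held, whereas Mt3 held 8 and Mt4 held 5. Mt1 had 3 cores, beginning at -23, +2 and +20 from the start, and Mt2 had 4, beginning at -223, -128, -50 and +4. Mt3 had 1 core at +27 and Mt4 had 1 at -91. At least 1 such core was present in 25.7% of all promoter windows, at least 3 in 1.97% and at least 4 in 0.517%, so that Mt1 and Mt2 were rich in them by this count. The letters GGGCGG, a core of SP1 sites, matched 3 times in Mt1, where 35.7% of all windows had a match. Among the 4 windows a TATAAA was found in that of Mt4 alone, at -30, against 13.6% of all windows. Sequence outside the windows was not searched, so that a TATAAA elsewhere in these genes would be missed. The restriction site CCGG, used to cut genomes for this method, occurred 4 times in Mt2 and once in Mt1, was not found in the Mt3 and Mt4 windows, and is in 52.8% of all promoter windows. None of the 4 windows held CACGTG, which 7.15% of all windows do. The start used for Mt1, 94179089, is that of the promoter table, and the RefSeq gene body begins earlier, at 94178883.

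The libraries read some of these promoter CpGs and not others. In Mt2, 15 of the 24 promoter CpGs were read in some library and 14 were tested. In Mt1, 5 of the 24 were read and none had enough reads for a test. No CpG of the Mt3 or Mt4 window was read, so their methylation was not measured.

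The part of the Mt2 promoter that was read was almost free of methylation in sperm of both groups. Its CpGs from -71 to +21, around the start, were not read in any library. Summed over its 14 tested CpGs, from -242 to -126, the level was 0.391% ± 0.629 in cadmium mice and 0.412% ± 0.748 in vehicle mice (SD, n = 15 each). The lowest, median and highest mouse had 0%, 0% and 1.76% with cadmium, against 0%, 0% and 2.34% with vehicle, and the ranges overlapped almost fully. The difference was -0.0214 percentage points with a 95% interval of -0.539 to 0.496. At 4 of the 14 CpGs no mouse had a methylated read, and at 7 the methylated reads came from 1 mouse. CpGs that lay on a metal response element core numbered 5 in Mt2, of which 2 were read, at -217 and -126. The CpG at -217 averaged 1.08% in cadmium mice and 0.223% in vehicle mice, and that at -126 was 0% in every mouse of both groups.

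The Mt1 promoter could be described only from pooled reads. Its 5 covered CpGs, from -157 to -111, had 0 methylated of 460 reads in 4 cadmium mice, which allows a share of up to 0.652%, and 0 of 920 reads in 8 vehicle mice, which allows up to 0.326%. These limits cover counting error only, since a read spans neighbouring CpGs and may be a PCR copy of another. None of the 5 lay on a metal response element core.

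By the CpGs tested in each window, the 4 genes split into a pair with little methylation and a pair with much. Tested CpGs in the gene body numbered 22 for Mt1, 22 for Mt2, 2 for Mt3 and 2 for Mt4, so that the windows compare unlike parts of the genes. Over its window of body and flanks, Mt2 had 2.78% ± 1.71 in cadmium mice and 1.48% ± 1.24 in vehicle mice, and Mt1 had 5.76% ± 1.92 in cadmium mice and 5.02% ± 2.12 in vehicle mice (SD, n = 15 each). Mt3 had 81.2% ± 8.49 in cadmium mice and 81.8% ± 7.66 in vehicle mice, and Mt4, from 2 CpGs, had 92.7% ± 5.51 in cadmium mice and 90.5% ± 7.48 in vehicle mice (SD, n = 15 each). Set among all tested gene windows by the mean of both groups, 10.2% of windows were lower than Mt2, 17.8% lower than Mt1, 83.5% lower than Mt3 and 91.1% lower than Mt4. The median vehicle level of all windows was 28.6%.

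The order Mt2, Mt1, Mt3, Mt4 was tested within mice. Mt1 exceeded Mt2 by 3.26 points ± 2.36 (SD, n = 30) and was higher in 27 of 30 mice, with an adjusted p = 1.2e-05 by the two-sided paired permutation test over 6 pairs of genes. Mt3 lay below Mt4 by a mean difference of -10.0 points ± 10.7 (SD, n = 30), with Mt3 higher in 6 of 30 mice (adjusted p = 2e-05, same permutation test). In the other 4 pairs, Mt1 or Mt2 minus Mt3 or Mt4, the mean difference ran between -76.1 and -89.45 points and every mouse had the same order, with an adjusted p = 1.2e-05 from the smallest raw p that 100000 resamples can give. The order held in each group taken alone, with Mt1 over Mt2 in 12 of 15 cadmium mice and in 15 of 15 vehicle mice. Without the 3 mice over 25% at imprinted ends, Mt1 exceeded Mt2 by 3.41 points (adjusted p = 1.2e-05, same permutation test), and Mt3 minus Mt4 was -10.1 points (adjusted p = 0.00015, same permutation test). The order of Mt1 and Mt2 was lost with 5000 bp taken on either side, where Mt1 minus Mt2 was 0.0508 points (p = 0.871, same permutation test). It also did not hold over gene bodies alone, a window added after seeing the data that leaves out the 2 CpGs in the flank of Mt1, at -1230 and -1187, and the 23 before Mt2. There Mt1 lay below Mt2, with a mean difference of -1.68 points (p = 0.00062, same permutation test).

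**Figure D1:**
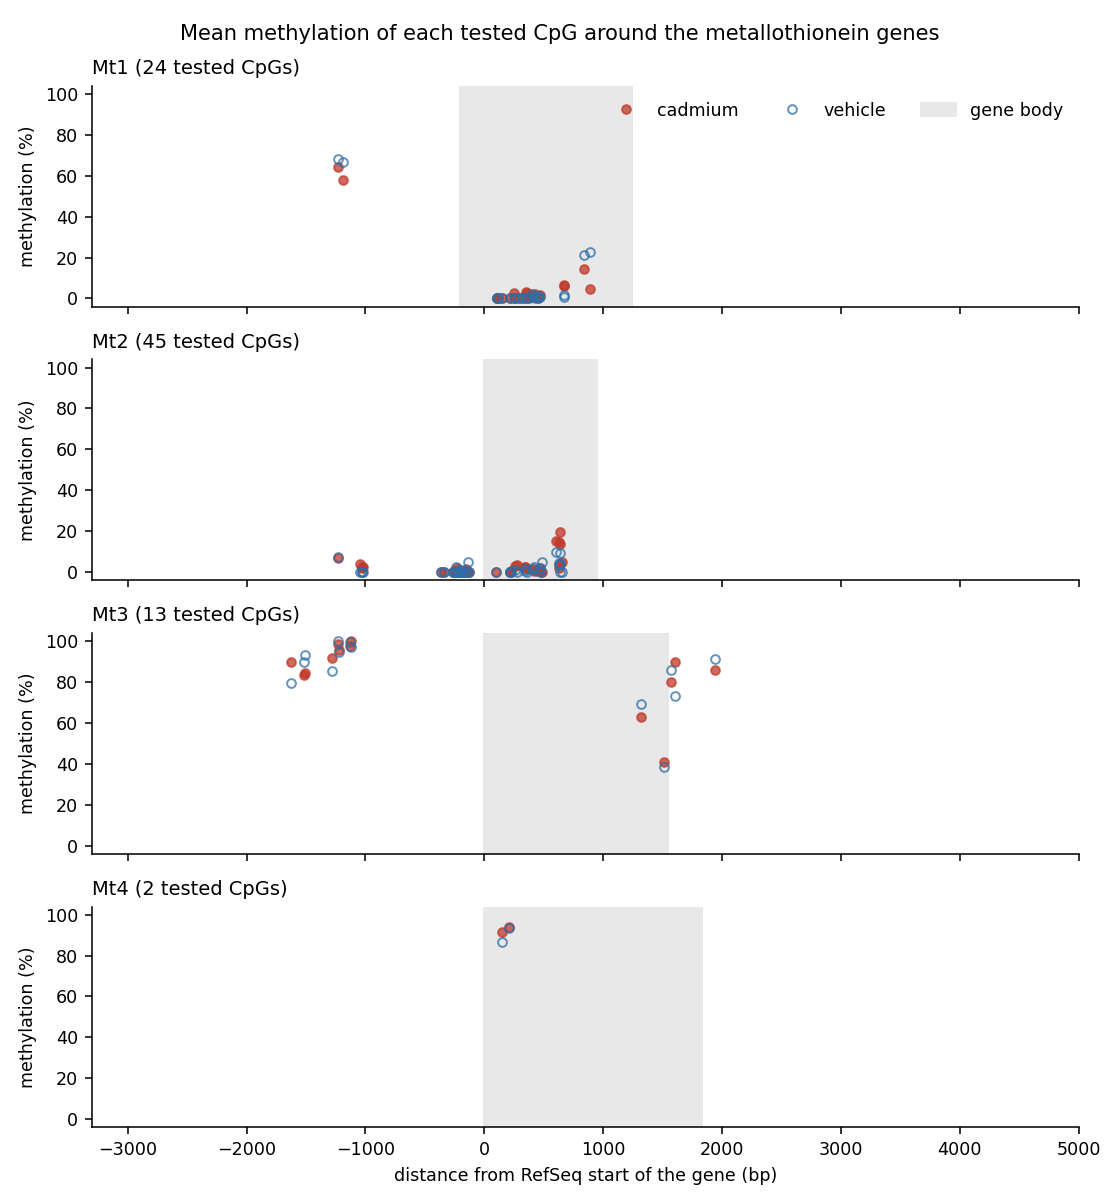
Mean methylation (%, vertical axis) of each tested CpG against its distance in bp from the RefSeq start of the gene, for Mt1, Mt2, Mt3 and Mt4, with filled points for cadmium mice, open points for vehicle mice and the gene body in grey. Mt1 and Mt2 sit mostly near 0 over their bodies, with single CpGs up to 22.8% in Mt1 and 19.5% in Mt2, the 2 upstream CpGs of Mt1 sit at 58.2% to 68.0%, and Mt3 and Mt4 sit mostly over 80%.

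Within Mt1 the methylation was uneven. The 22 tested CpGs of the gene body had 1.75% ± 1.04 in cadmium mice and 0.996% ± 0.869 in vehicle mice, whereas the 2 CpGs before the gene, at chr8 positions 94177859 and 94177902, had 61.3% ± 14.6 in cadmium mice and 67.4% ± 17.8 in vehicle mice (SD, n = 15 each). The upstream values spread widely between mice, with a lowest, median and highest mouse of 37.9%, 64.6% and 89.4% for cadmium and 37.9%, 72.2% and 90.7% for vehicle, and the groups overlapped over nearly the whole range. Further along the body, at +839 and +885, most mice were at 0% and a few were high. At +839, 1 of 12 cadmium mice and 3 of 13 vehicle mice had 50% or more.

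Mt2 was low throughout what was tested, with 1 stretch that was less so. The 23 upstream CpGs had 0.956% ± 1.16 in cadmium mice and 0.537% ± 0.671 in vehicle mice, and the 22 body CpGs had 3.96% ± 2.63 in cadmium mice and 2.14% ± 1.83 in vehicle mice (SD, n = 15 each). Among 7 body CpGs from +603 to +650 the mean of a CpG reached 19.5% in cadmium mice and 9.77% in vehicle mice, the highest in Mt2. Downstream, 5 CpGs between +3119 and +3655 were too thinly read to test, with all 78 reads methylated in cadmium mice, against 35 of 45 in vehicle mice. Far upstream, the untested CpGs at -2932 and -2913 were also high, with 106 of 118 and 94 of 118 reads methylated over all mice.

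Mt3 was highly methylated on both sides and intermediate within the tested end of its body. The 8 upstream CpGs, from -1623 to -1125, had 92.3% ± 6.59 in cadmium mice and 93.1% ± 6.47 in vehicle mice (SD, n = 15 each). The 2 tested CpGs of the body, at +1316 and +1509, had 49.1% ± 21.9 in cadmium mice and 49.4% ± 21.5 in vehicle mice (SD, n = 15 each). The 3 downstream CpGs had 83.3% ± 15.3 in 15 cadmium mice and 82.1% ± 14.6 in 14 vehicle mice (SD). A further 10 CpGs of the body, from +156 to +1496, fell short of the coverage rule, and pooled they had 98 of 872 reads methylated in cadmium mice, or 11.2%, and 78 of 857 in vehicle mice, or 9.10%. The body of Mt3 thus held low and partly methylated CpGs side by side, and 11 of the 13 CpGs behind its window level lie in the flanks.

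Mt4 was read at 6 CpGs, 4 of them in the body. The 2 tested ones, at +145 and +211, averaged 91.8% ± 6.50 and 94.1% ± 7.72 in cadmium mice, against 86.9% ± 13.7 and 93.3% ± 12.6 in vehicle mice (SD, n = 14 or 15). The other 2 body CpGs, at +855 and +1613, had 139 of 191 pooled reads methylated in cadmium mice, or 72.8%, and 126 of 127 in vehicle mice, or 99.2%. These pooled reads came from 10 cadmium and 9 vehicle mice with few reads each, and no comparison was made.

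The first question of the design is whether the metallothionein windows differed between cadmium and vehicle mice, and none of the 3 tested windows passed the threshold. Among all 25904 gene windows the quasi-binomial model called 0, or 0%, at a Benjamini-Hochberg adjusted p under 0.05, with 3.63% under an unadjusted p of 0.05 (2.62% higher and 1.02% lower in cadmium mice) and a smallest adjusted p of 0.228. The logistic model compared methylated and unmethylated reads with a dispersion term for the spread between mice.

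Mt2 had the smallest p of the family. Its lowest, median and highest mouse had 0.401%, 2.63% and 6.15% with cadmium, against 0%, 1.13% and 4.11% with vehicle, so that the cadmium values sat higher while the ranges overlapped. The difference between the mean mice was 1.30 points with a 95% interval of 0.177 to 2.42, and the model gave p = 0.0735, adjusted over all windows p = 1. On the percentages of the mice, limma gave p = 0.0319, again with an adjusted p = 1. Without the 3 mice over 25% at imprinted ends it was 1.09 points (p = 0.206). With only the CpGs read 10 times or more in all 30 mice it turned to -0.0131 points.

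Mt1 differed by less than its spread. The lowest, median and highest mouse had 3.47%, 5.77% and 10.4% with cadmium, against 1.32%, 4.67% and 9.21% with vehicle. Cadmium minus vehicle was 0.737 points (interval -0.779 to 2.25, model p = 0.219, adjusted p = 1), and 0.677 points without the 3 mice. It turned to -0.588 points when every CpG counted alike instead of by its reads. In the body alone, a window added after seeing the data, cadmium minus vehicle was 0.758 points (interval 0.0417 to 1.48, model p = 0.0213, adjusted p = 1).

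Mt3 and Mt4 showed no difference beyond their spread. In Mt3 the lowest, median and highest mouse had 59.9%, 82.7% and 94.6% with cadmium, against 71.0%, 80.4% and 96.0% with vehicle, and cadmium minus vehicle was -0.572 points (interval -6.62 to 5.48, model p = 0.695, adjusted p = 1), and -1.18 points without the 3 mice. Its sign changed with the strands kept separate, at 0.286 points, and with every CpG counted alike, at 0.230 points, so no direction is given for Mt3. In Mt4 the lowest, median and highest mouse had 80.6%, 92.5% and 100% with cadmium, against 78.4%, 91.5% and 100% with vehicle. Cadmium minus vehicle was 2.16 points (interval -2.77 to 7.10), and 0.444 points without the 3 mice.

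Most gene windows of the whole table leaned toward higher levels in cadmium mice. Of the 3 tested windows, 2 were higher and 1 lower in cadmium mice, with a median difference of 0.737 points and with signs that turned under the alternatives named for each, beside 62.9% of all windows higher and a median of 0.378 points over all. The median mouse had 1774 reads with cadmium and 1842 with vehicle in Mt1, and 1992 with cadmium and 1957 with vehicle in Mt2. Mt3 had 487 reads with cadmium and 492 with vehicle, and Mt4, summed over its 2 CpGs, had 115 with cadmium and 146 with vehicle.

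**Figure D2:**
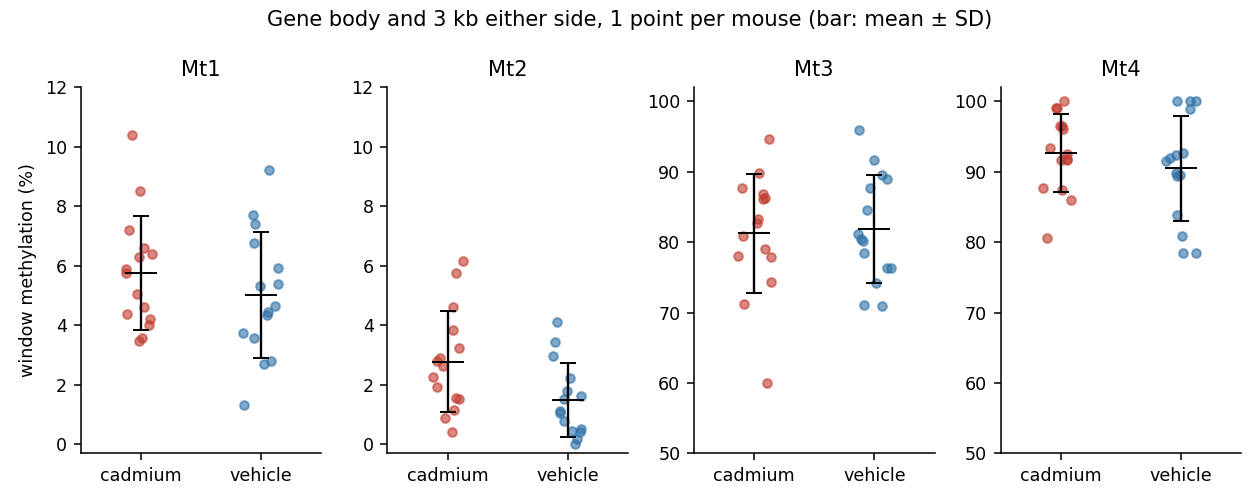
Methylation (%) of the window of each gene, its body and 3000 bp either side, with 1 point for each of 15 cadmium and 15 vehicle mice and a bar for the mean ± SD; the axes of Mt1 and Mt2 run to 12% and those of Mt3 and Mt4 start at 50%. The groups overlap in all 4 genes, and Mt2 has the most visible shift, 2.78% in cadmium mice against 1.48% in vehicle mice.

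At single CpGs, 0 of the 84 were called at an adjusted p under 0.05, by the quasi-binomial model or by limma, where the model called 6 of all 1125411, or 0.000533%. At an unadjusted p under 0.05 the model had 15 of the 84, or 17.9%, beside 10.1% of all tested CpGs. In limma it was 3 of the 84, and the share of all tested CpGs at that p was not counted for limma. The CpGs of a gene share reads and mice, so these 15 are not 15 separate results. Of the 15, 12 were higher in cadmium mice and 3 lower, where 5.32% of all tested CpGs were higher and 4.75% lower at that p. Mt1 had 4 of 24, Mt2 10 of 45, Mt3 1 of 13 and Mt4 0 of 2.

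Most of these 15 lay at CpGs where nearly all mice read 0%. At 9 of them no vehicle mouse had a methylated read, at 2 no cadmium mouse had one, and at 3, all in the Mt2 promoter window, the methylated reads came from 1 mouse. In this model a group without a methylated read adds nothing to the dispersion, although its mice are counted. The p at such CpGs can therefore be too small, here and among all tested CpGs. Of the 60 CpGs of the family that averaged under 5%, 14 had an unadjusted p under 0.05, or 23.3%, beside 10.9% of all tested CpGs at that level. Counting all 84, 44 were higher in cadmium mice, 24 lower and 16 had no methylated read in any mouse, beside 39.0% higher and 38.9% lower of all tested CpGs. Without the 3 mice over 25% at imprinted ends, 0 of the 84 were called, beside 5 of all 1125411 tested CpGs. In that setting 14 of the 84 had an unadjusted p under 0.05, and the share of all tested CpGs at that p was not counted.

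The smallest p in Mt1 was at position 94179519, +430 in the gene body. It averaged 2.34% ± 5.0 in cadmium mice and 0% in vehicle mice (SD, n = 15 each), with methylated reads in 4 of 15 cadmium and 0 of 15 vehicle mice, a highest cadmium mouse at 15.9% and an adjusted p = 0.217 in the quasi-binomial model. At 94179337, +248, the same pattern gave 2.76% ± 5.73 in cadmium mice and 0% in vehicle mice, again with 4 cadmium and 0 vehicle mice above 0 (model adjusted p = 0.295). At 94179449, +360, 7 cadmium and 3 vehicle mice were above 0, at a mean of 2.92% ± 4.12 with cadmium and 0.322% ± 0.930 with vehicle (model adjusted p = 0.371).

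The Mt1 CpGs that leaned the other way had larger p. The upstream CpG at 94177902 averaged 58.2% ± 17.1 in cadmium mice and 66.9% ± 19.8 in vehicle mice (SD, n = 15 each), with a model adjusted p = 0.710. At 94179974, +885, the mean was 4.82% ± 10.8 in 12 cadmium mice and 22.8% ± 39.8 in 13 vehicle mice (SD), where 3 vehicle mice had 50% or more and 2 of them 100%. At 94179542, +453, no cadmium mouse and 2 vehicle mice had a methylated read.

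The smallest p values of Mt2 were at 2 CpGs of the body. At 94173254, +636, the mean was 3.82% ± 7.99 in 15 cadmium mice and 0% in 14 vehicle mice (SD), with 3 cadmium and 0 vehicle mice above 0 and a model adjusted p = 0.269. At 94173268, +650, it was 4.83% ± 10.3 with cadmium and 0% with vehicle, again in 3 cadmium and 0 vehicle mice. At 94172893, +275, methylated reads came from 2 cadmium mice, 1 of them at 25.7%.

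The lower CpGs of Mt2 were as sparse. At 94173036, +418, 1 cadmium mouse and 6 vehicle mice were above 0, at means of 0.299% ± 1.16 with cadmium and 2.63% ± 3.85 with vehicle (SD, n = 15 each), with a model adjusted p = 0.379. At 94173100, +482, 0 of 11 cadmium and 2 of 11 vehicle mice were above 0. In the promoter, at 94172479, -139, the mean of 4.69% in vehicle mice came from 1 mouse at 56.3%, and all 11 cadmium mice were at 0%.

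Mt3 had the widest single difference of those with an unadjusted p under 0.05. At 94154211, +1604, just past the gene's end, the mean was 89.9% ± 14.0 in cadmium mice and 72.9% ± 20.6 in vehicle mice (SD, n = 14 each). The lowest, median and highest mouse had 57.8%, 97.4% and 100% with cadmium, against 34.2%, 68.3% and 100% with vehicle. Cadmium minus vehicle was 17.0 points (interval 3.20 to 30.7, model p = 0.00870, adjusted p = 0.354). Its neighbour at +1568 averaged 79.9% in cadmium mice and 85.7% in vehicle mice, the opposite direction.

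**Figure D3:**
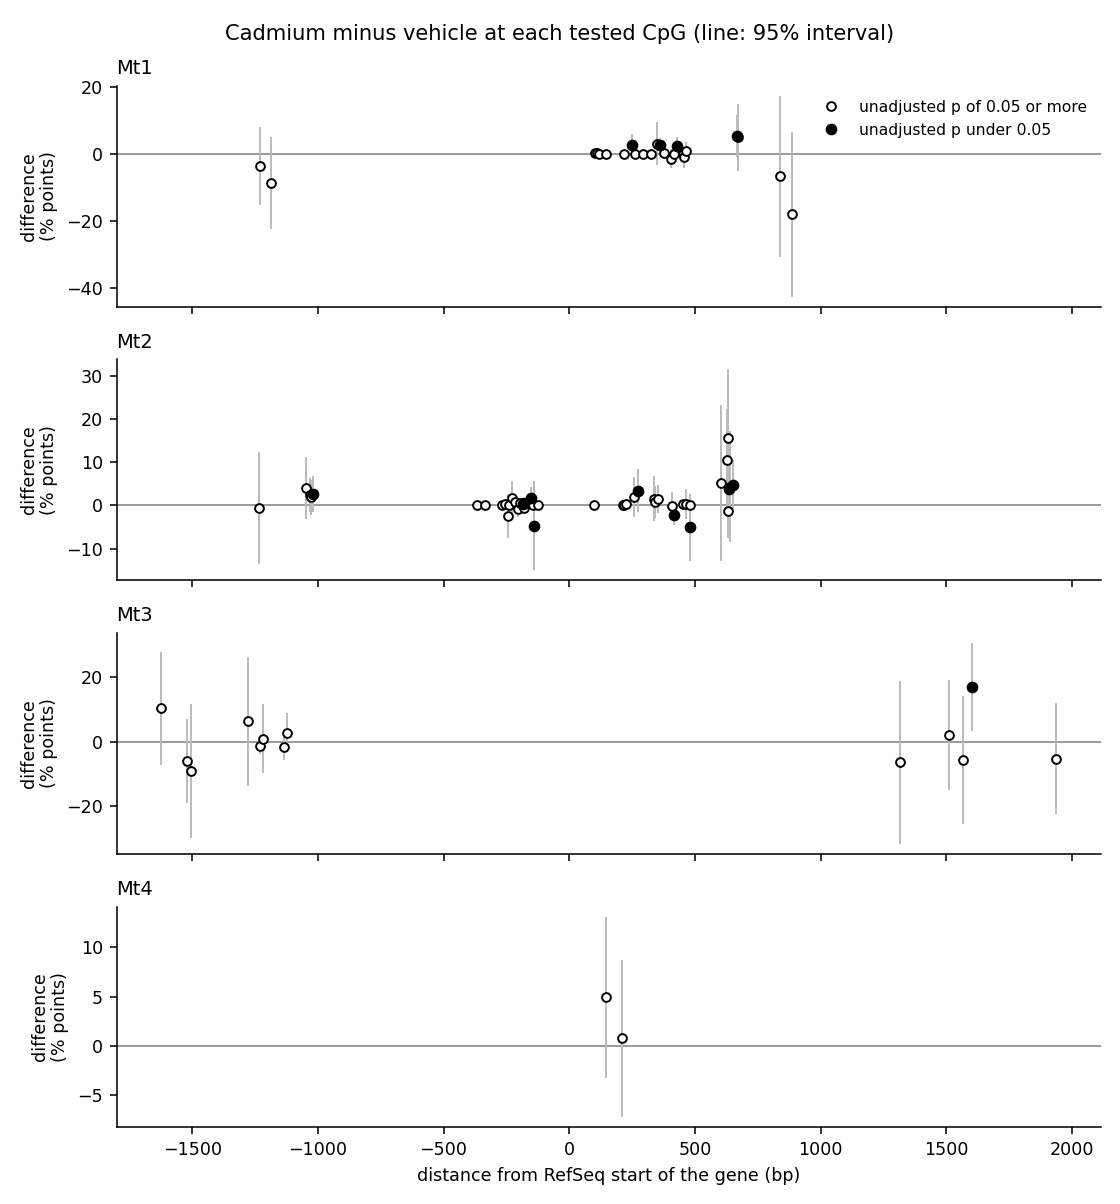
Difference in methylation, cadmium minus vehicle in percentage points, at each tested CpG against its distance in bp from the RefSeq start, with a line for the 95% interval and filled points for an unadjusted p under 0.05. None of the 84 CpGs passed the adjusted threshold.

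Neighbouring CpGs were also summed into clusters, runs of 3 or more tested CpGs with gaps of 100 bp or less, which pool more reads than 1 CpG. The family held 7 clusters, of which 0 were called at an adjusted p under 0.05 by the quasi-binomial model, beside 1 of all 102701, or 0.000974%. At an unadjusted p under 0.05 there were 2 of the 7, both higher in cadmium mice, beside 6.02% of all clusters (3% higher and 3.02% lower). Leaving out the 3 mice over 25% gave 0 and 2 as well, and the shares over all clusters were not counted in that setting.

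The Mt1 body cluster, 18 CpGs at chr8:94179193-94179555, was among these 2. Its lowest, median and highest mouse had 0%, 1.29% and 2.66% with cadmium, against 0%, 0.0617% and 1.43% with vehicle, and 13 cadmium and 9 vehicle mice were above 0. The means were 1.17% ± 0.844 with cadmium and 0.453% ± 0.580 with vehicle (SD, n = 15 each). Cadmium minus vehicle was 0.714 points (interval 0.169 to 1.26, model p = 0.00878, adjusted p = 0.601).

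The other was a cluster of 4 CpGs about a kilobase before Mt2, at chr8:94171572-94171599. Methylated reads were present in 4 of 13 cadmium mice, at 5.59%, 7.50%, 10.6% and 12%, and in 0 of 10 vehicle mice, with a model p = 0.00139 and adjusted p = 0.364. The vehicle mice had fewer reads there, a median of 40 against 80 in cadmium mice, and the part of depth in the result was not tested. A vehicle group without a methylated read adds nothing to the dispersion, so that this p can be too small.

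The cluster of 7 CpGs in the body of Mt2, at chr8:94173221-94173269, had the widest spread among the clusters of Mt1 and Mt2. Its lowest, median and highest mouse had 0%, 8.48% and 29.1% with cadmium, against 0%, 4.03% and 12.2% with vehicle, and 12 of 15 cadmium and 9 of 14 vehicle mice were above 0. The 5 highest of all values were cadmium mice, and 3 cadmium mice were at 0%. The means were 10.6% ± 10.1 with cadmium and 4.38% ± 4.18 with vehicle (SD), and the model gave p = 0.119, adjusted p = 0.936. Cadmium mouse 5 read 100% at 2 CpGs of this cluster, +603 and +633, and at +633 there were 7 cadmium and 3 vehicle mice above 0.

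The other 4 clusters had like levels in the groups. Those of the Mt2 promoter and of its 5′ body had 0.347% and 1.18% in cadmium mice, against 0.375% and 1.30% in vehicle mice. Those of Mt3, before the gene and around its end, had 97.0% and 60.5% in cadmium mice, against 96.2% and 61.0% in vehicle mice.

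**Figure D4:**
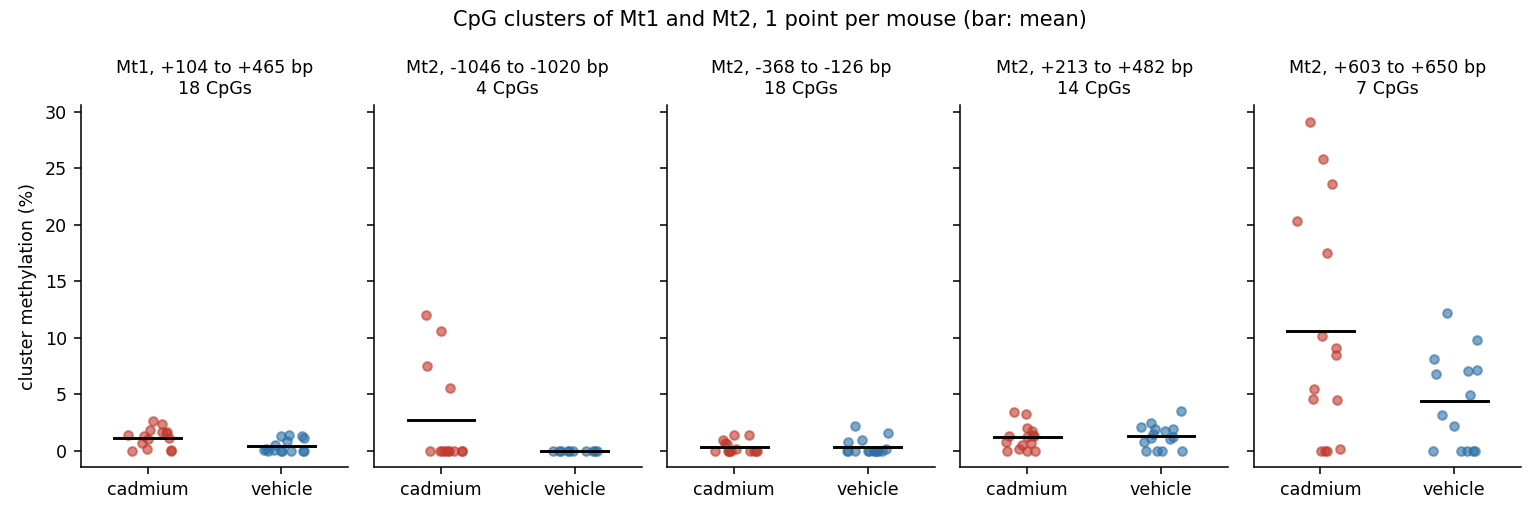
Methylation (%) of the 5 CpG clusters of Mt1 and Mt2, with 1 point per mouse, cadmium left of vehicle, and a bar for the mean; mice without 10 reads at a tested CpG of the cluster are not shown. In the cluster at +603 to +650 of Mt2 cadmium mice reach 29.1% and vehicle mice 12.2%, and in the other clusters of these genes most mice lie near 0%.

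Differences between mice in the windows were set against measures of the libraries. Across the 30 mice, 12 relations were computed between the 4 windows and the level at imprinted gene ends, the unmethylated control and total coverage, and none passed adjustment. The smallest was Mt4 against the imprinted ends, with Pearson's r = -0.422 (permutation p = 0.0204, adjusted p = 0.245) and Spearman's rho = -0.356 (permutation p = 0.0546). Without vehicle mice 4 and 13, r was -0.251, and it was -0.245 within cadmium mice and -0.607 within vehicle mice. For Mt2, r with the imprinted ends was -0.187 and with coverage -0.165 (adjusted permutation p = 0.625 for both).

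Centred within its group, the level of a gene window can be likened to that of others over the 30 mice, among 25164 windows read in every mouse. The windows most like Mt1 were Gm34895 (r = 0.658), Dad1 (r = 0.651) and Atl2 (r = 0.648), and those most like Mt2 were BC005537 (r = 0.697), 1700084E18Rik (r = 0.609) and Gm831 (r = 0.601). Mt3 was most like Gm5532 (r = 0.725), Depdc1b (r = 0.718) and Gm52061 (r = 0.699), and Mt4 most like Nctc1 (r = 0.727), Gm30306 (r = 0.702) and Gm16226 (r = 0.699). These are the top of a long ranking over windows that share libraries and depth, and are given as a description. Mt1 and Mt2, neighbours on the chromosome, had r = 0.108 with each other, Mt1 and Mt3 0.250, and Mt2 and Mt3 -0.0470. Mt4 had r = 0.486 with Mt2, 0.415 with Mt1 and -0.0811 with Mt3.

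Genes that act with the metallothioneins were listed by role. Over all gene windows, 62.9% were higher in cadmium mice and 3.63% had an unadjusted p under 0.05 in the quasi-binomial model, with a median difference of 0.378 points. The list of MTF1 and its targets held 9 genes, all tested, of which 0 were called by the quasi-binomial model and 0 had an unadjusted p under 0.05. In cadmium mice 6 were higher and 3 lower, with a median difference of 0.502 points. Mtf1 itself had 14.5% ± 3.40 in cadmium mice and 13.5% ± 2.95 in vehicle mice, and the zinc exporter Slc30a1 had 7.73% ± 3.12 in cadmium mice and 7.49% ± 2.43 in vehicle mice (SD, n = 15 each). The smallest p of the list was that of Csrp1, a LIM domain protein, with 34.1% in cadmium mice and 36.5% in vehicle mice (model adjusted p = 1). The iron exporter Slc40a1 had 5.63% in cadmium mice and 3.97% in vehicle mice, and Selenow, which encodes a selenoprotein, had 54.0% in cadmium mice and 56.2% in vehicle mice.

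Among 10 genes for carriers that can move cadmium or take it up, all tested, 0 were called by the quasi-binomial model. Of them 7 were higher and 3 lower, beside 62.9% of all windows higher, with a median difference of 0.784 points. Only Slc39a8 had an unadjusted p under 0.05, where 3.63% of all windows did. It encodes ZIP8, a carrier that can move cadmium into cells, and its window had 38.4% ± 8.66 in cadmium mice and 44.4% ± 3.84 in vehicle mice (SD, n = 15 each). Cadmium minus vehicle was -6.02 points (interval -11.1 to -0.907, model p = 0.0337, adjusted p = 1). Its relative Slc39a14 leaned the other way, with 36.4% in cadmium mice and 31.6% in vehicle mice, and the endocytic receptor Lrp2 had 36.9% in cadmium mice and 34.7% in vehicle mice.

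The 7 neighbours on chromosome 8 gave 0 calls by the quasi-binomial model and 0 at an unadjusted p under 0.05. They had 5 higher and 2 lower, beside 62.9% of all windows higher, and a median difference of 1.08 points. Levels along this stretch varied widely, with Ogfod1 at 14.2% with cadmium and 11.9% with vehicle, and Slc12a3, the thiazide-sensitive cotransporter of the kidney, at 84.8% with cadmium and 84.7% with vehicle. Bbs2, the nearest of those listed before Mt4, had 47.9% in cadmium mice and 44.2% in vehicle mice. Gnao1, which encodes a G protein subunit, had 36.4% in cadmium mice and 37.7% in vehicle mice, and Herpud1, a gene of the stress response of the endoplasmic reticulum, had 60.5% in cadmium mice and 55.4% in vehicle mice. These 3 had the smallest p of the neighbours.

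**Figure D5:**
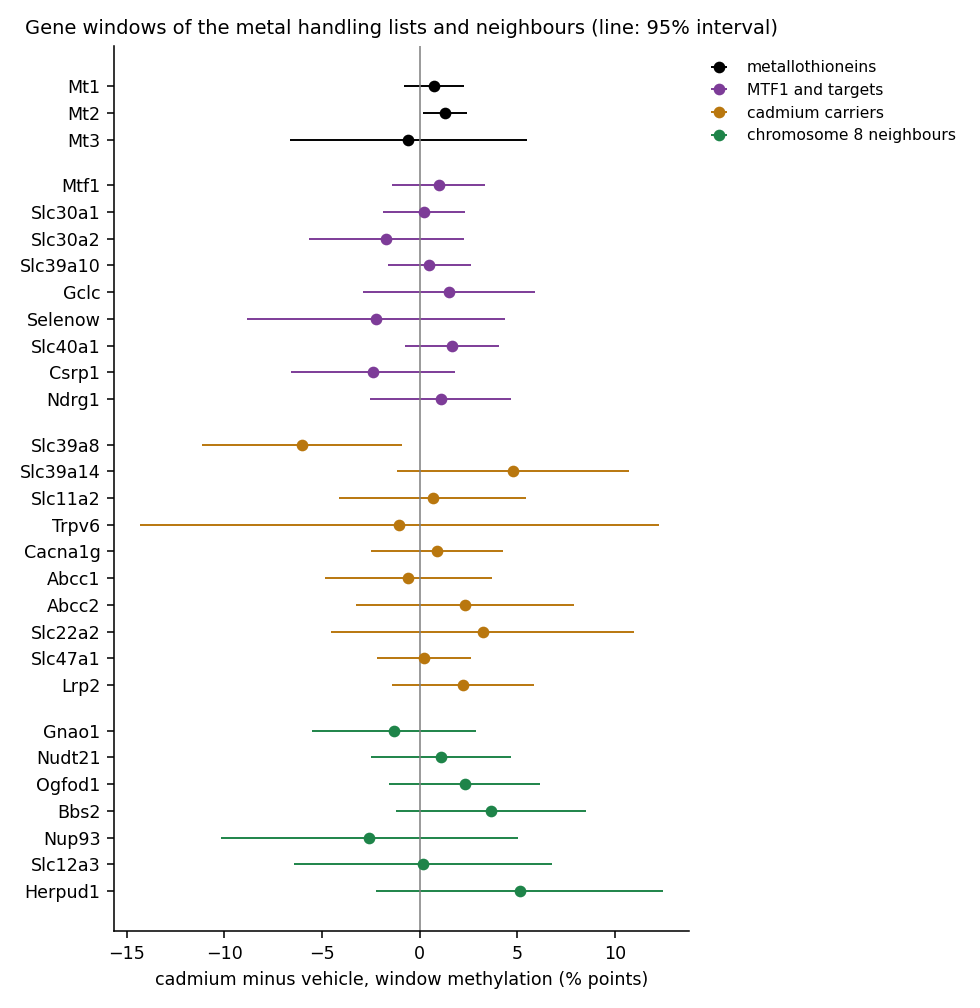
Difference in window methylation, cadmium minus vehicle in percentage points, with 95% intervals, for the 3 tested metallothionein genes, MTF1 and its targets, cadmium carriers and neighbours on chromosome 8. The interval of Mt2, 0.177 to 2.42, lies above 0 and that of Slc39a8, -11.1 to -0.907, below it, and no gene passed the adjusted threshold.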

How the data were processed

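The authors deposited, for each CpG cytosine and strand of each library, the fraction of reads methylated and the count of covering reads. Tools listed in the submitters' processing notes are methylKit 1.12.0, Bismark 0.22.3, Trim Galore 0.5.0 and bcl2fastq, with mm10 and GRCm38 as builds and no word on which tool did which step. Multiplying a deposited fraction by its count gave whole numbers, within 0.1, except at no more than 1 cytosine of a library, and these were rounded to methylated reads. Read counts above the 99.9th percentile of a mouse were left out.

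The members, lists and tests were chosen with earlier results of these data known. Reads were summed over strands, windows and clusters. A logistic model, its Pearson dispersion floored at 1 and treatment tested by F, was fitted to all CpGs, clusters and RefSeq gene windows (GRCm38.p6), with Benjamini-Hochberg adjustment and calls at 0.05. The model was also run on simulated gene windows with large changes, which does not test it at single CpGs, at clusters or for small differences. Intervals are at 95%, on unweighted means of mice. Levels are shares of summed reads. Permutations drew 100000 resamples. Numpy 2.4.6, scipy 1.17.1 and limma 3.58.1 were used.

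For each gene, the 3 higher and 3 lower CpGs with the smallest p were named, with promoter and metal response element CpGs, the 3 most alike windows and the 3 smallest p of each list; Mtf1, Slc30a1, Ogfod1 and Slc12a3 in the lists, CpGs at +603, +633, +839 and +1568, and the clusters shown were picked after their values were seen. Alternatives were minimum reads of 5 or 20, all 15 mice of each group, no upper limit, no dispersion, limma with and without a replicate block, separate strands, other windows, unweighted CpGs and gaps of 300 bp. Gene bodies alone, 2 or more CpGs and leaving out 3 mice were added after seeing the data.

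Mice of the groups share replicate numbers, but no label ties the pairs, and numbers were not taken to pair mice. Repeat sequencing of a library was looked for within groups and not found, with a mean chi-square per CpG of at least 8.74 over 210 pairs. The annotation gave no exons, and protein sequences were not used here. A further neighbour that the rule takes is not reported here.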

Additional observations from a re-analysis of the deposited data

How the results depend on the processing

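No alternative brought a metallothionein window, CpG or cluster past the adjusted threshold except dropping the dispersion term, which takes reads of a mouse as independent: Mt1 then passed at 0.737 points (adjusted p = 8.78e-06) and Mt2 at 1.30 points (adjusted p = 8.43e-17), and 40 of the 84 CpGs were called, beside 43.0% of all tested CpGs. The adjusted p of the other alternatives was never under 0.05 for Mt1, Mt2 or Mt3. With all 15 mice of each group required at every CpG, Mt2 was -0.0131 points, and fewer of its CpGs are used by construction. With strands separate Mt3 was 0.286 points; with an unweighted mean over CpGs Mt1 was -0.588 and Mt3 0.230 points. The cause of these sign changes was not tested. Mt1 minus Mt2 was 0.0508 points (permutation p = 0.871) with 5000 bp either side and -1.68 points in gene bodies only. The other 5 pairs of genes kept their order under all 7 alternatives, but the size of some differences depended on the window. In gene bodies only, Mt1 minus Mt3 was -47.9 points, Mt2 minus Mt3 -46.2 points and Mt3 minus Mt4 -42.3 points. Mt1 minus Mt4 was -90.2 points there and Mt2 minus Mt4 -88.5 points. The replicate block, fitted in limma, left the differences at 0.737 for Mt1 (p = 0.332), 1.30 for Mt2 (p = 0.0531) and -0.572 for Mt3 (p = 0.845) and called 0 CpGs. Same-numbered mice correlated over 0.1 in 5 of 15 pairs, between -0.308 and 0.697. Their mean correlation was 0.104, against -0.00698 for other pairs. For 2 of 15 cadmium mice the vehicle mouse of the same number was the closest. Whether replicate numbers mark a shared batch was not tested. Mt3 had no test with all 15 mice or in its body alone, where fewer than 3 CpGs were left, and Mt4 was tested only with the minimum lowered to 2 CpGs (p = 0.415, adjusted p = 1). The Mt1 promoter had too few reads for a test, and Mt4 too few CpGs. The median tested CpG of the family had 44.5 reads in a mouse, so that a level of a few percent at 1 CpG rests on 1 or a few reads.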
